A study of Mus musculus with 6 samples.

Results

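Type I interferon receptors, the STAT and IRF factors that act with them, and the cytosolic sensors of viral RNA were compared between extraembryonic endoderm (XEN) and embryonic stem (ES) cells of the mouse. The set held 9 genes, chosen by symbol alone: Ifnar1, Ifnar2, Stat2, Irf1, Irf3, Irf9, Ddx58, Ifih1 and Mavs, out of 17710 genes listed in any library. Total RNA was sequenced from 3 XEN and 3 ES libraries, named A, B and C in each group, on the BGISEQ-500 platform, in a series on the metabolism and mitochondria of XEN cells. XEN cells, self-renewing lines derived from the embryo's primitive endoderm, came from strain ICR and grew in RPMI1640 with 15% fetal bovine serum, glutamine and a component abbreviated BME. ES cells, pluripotent lines of the early embryo, were of strain 129/Ola and grew on 0.1% gelatin in the serum-free medium N2B27 with 2i and LIF. Both groups were kept without feeder cells and without an added interferon or virus in their labels. The labels name no line or clone. Nor do they state separate cultures for the libraries of a group; p-values here therefore reflect only the spread between these libraries, possibly a technical one. Cell type, strain and culture medium differ at once between XEN and ES cells and cannot be told apart.

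Type I interferon binds a receptor made of the IFNAR1 and IFNAR2 chains, which carry the kinases TYK2 and JAK1. These phosphorylate STAT proteins, among them STAT2, which joins IRF9 in the complex ISGF3, and ISGF3 binds interferon-stimulated response elements (ISRE) in the promoters of antiviral genes. Upstream of interferon, the helicases RIG-I, encoded by Ddx58, and MDA5, encoded by Ifih1, bind viral RNA in the cytosol and signal through the mitochondrial protein MAVS to IRF3 and the interferon genes. Mouse ES cells are known to make and answer type I interferon weakly.

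The promoters of the set were searched for the sites that these factors bind, because several of the 9 genes are themselves interferon-inducible. The windows, from RefSeq on GRCm38.p6, ran from 250 bases before to 50 bases after the annotated start, and all 9 genes matched 1 or 2 of them, for 11 windows in all. The letters GAAANNGAA, the core of an ISRE, were found on either strand in 3 of the 11 windows, against 8.56% of all 32851 windows. The letters TTCNNNGAA, the gamma-activated site (GAS) bound by STAT dimers, were found in 3 others, against 8.30% of all windows. Each match but 1 is printed with up to 20 bases on either side, 5′ to 3′ on the strand of the gene and ending at most 25 bases past the start, with the matched letters in capitals. The ISRE core matches read in the reverse direction in the 3 stretches shown.
Ifih1, chr2:62646339-62646387, minus strand: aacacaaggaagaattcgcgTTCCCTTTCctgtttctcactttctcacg
Ddx58, chr4:40239801-40239842, minus strand: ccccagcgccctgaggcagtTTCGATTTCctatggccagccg
Stat2, chr10:128270257-128270305, plus strand: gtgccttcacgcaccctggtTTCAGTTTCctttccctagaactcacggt
Irf1, chr11:53769904-53769952, plus strand: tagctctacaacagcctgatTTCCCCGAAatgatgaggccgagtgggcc
Ifnar2, chr16:91372549-91372597, plus strand: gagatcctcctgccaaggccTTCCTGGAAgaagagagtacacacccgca
Ifnar1, chr16:91485190-91485238, plus strand: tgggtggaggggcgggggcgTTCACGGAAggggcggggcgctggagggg
The ISRE core of Stat2 began 221 bases before the annotated start, that of Ifih1 112 bases before it, and that of Ddx58 3 bases after it; a second match in Ifih1, not printed, began 32 bases after the start. The GAS letters of Ifnar2 began 214 bases before the start, those of Irf1 90 and those of Ifnar1 5 bases before it. No match overlapped another, and neither motif was found in the windows of Irf3, Irf9 and Mavs. A match is a description of letters and not a site shown to be bound.

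Both receptor chains and Irf3 were higher in XEN cells, by 1.93-fold to 2.22-fold, while Stat2, Irf9, Irf1, Ddx58 and Mavs were lower in XEN cells, by 2.33-fold to 55.5-fold. Ifih1 was listed in no XEN library and held 6 counts over the 3 ES libraries. Of the 9 genes, 8 had enough counts to be tested. All 8 passed edgeR's quasi-likelihood test with Benjamini-Hochberg adjustment over 13581 tested genes at 0.05, with 3 higher and 5 lower, and their adjusted p ran from 2.43e-23 to 2.95e-10. The 2 kinds of cell differed at most genes, since 88.7% of all tested genes passed, 42.0% as higher and 46.7% as lower in XEN cells, so that passing is near the background. Against a change of 2-fold, 6 of the 8 passed, 1 higher and 5 lower, beside 42.7% of all tested genes. The XEN and ES libraries did not overlap for any of the 8 genes, and 89.4% of all tested genes had groups that did not overlap. The median log2 fold change, XEN over ES, was -1.32 over the 8 genes and -0.07 over all tested genes. In RNA from a whole culture, fewer cells expressing a gene and less RNA per cell cannot be told apart.

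**Figure D1:**
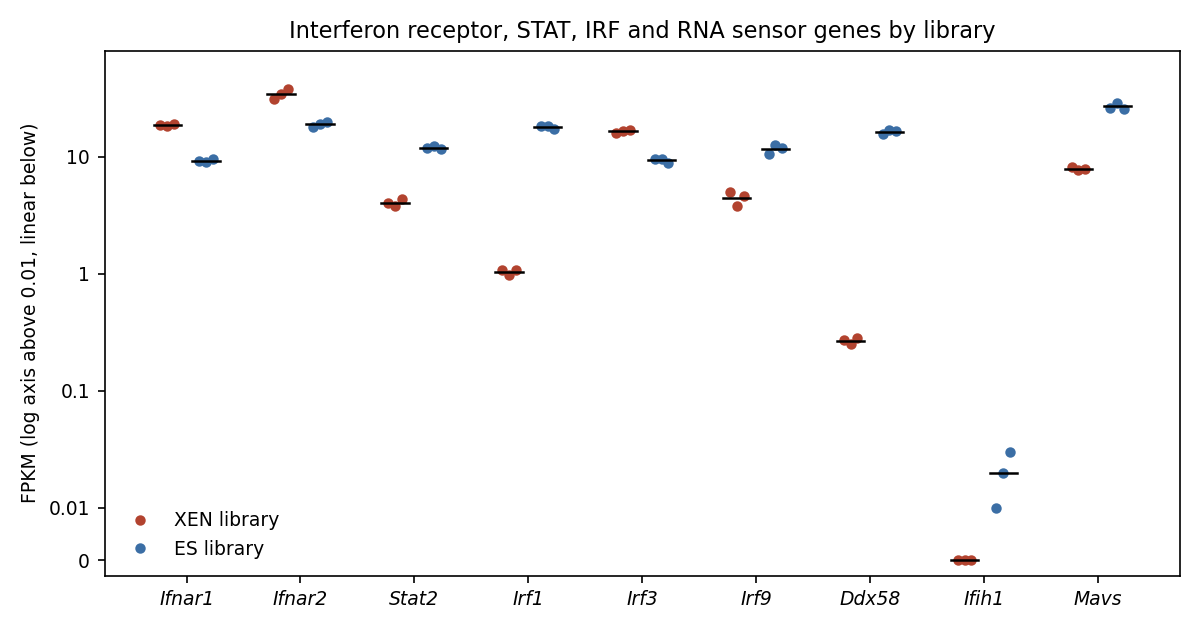
FPKM of the 9 genes (vertical axis, logarithmic above 0.01 and linear below), with 1 point per library, XEN left of ES, and a bar at each group's mean. XEN libraries lie above ES libraries for Ifnar1, Ifnar2 and Irf3 and below them for the others, with Ddx58 at 0.25 to 0.28 FPKM in XEN against 15.7 to 16.7 FPKM in ES libraries.

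The receptor chains were the most abundant of the 9 genes in XEN cells. Levels are given as the authors' FPKM, which divides counts by transcript length and library size. Ifnar1 (gene 15975), the chain that recruits TYK2, had 18.6, 18.3 and 19 FPKM in XEN libraries A, B and C, against 9.12, 9.01 and 9.44 FPKM in ES libraries A, B and C. All XEN libraries were above all ES libraries, and the libraries of either group were close together. Its log2 fold change was 1.15 ± 0.03 (SE; adjusted p = 2.44e-16, edgeR), and it was the 1 gene of the 3 higher ones that passed the test against 2-fold (adjusted p = 0.000488). Its expected counts were not whole numbers in any of the 6 libraries, so some of its reads were shared with another gene model.

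Ifnar2 (gene 15976), the chain that binds JAK1 and holds STAT2, had 30.9, 33.9 and 37.4 FPKM in XEN libraries, against 17.9, 18.8 and 19.8 FPKM in ES libraries. The groups did not overlap, and the XEN libraries were the more widely spread, at 34.1 ± 3.23 FPKM against 18.8 ± 0.961 FPKM in ES libraries (SD, n = 3 each). The log2 fold change was 1.08 ± 0.08 (adjusted p = 1.06e-12, edgeR), and it did not pass against 2-fold (adjusted p = 0.0822). The mean transcript length that the authors' tables assign to Ifnar2 was 1424 ± 21.8 bases in XEN and 1334 ± 17.3 bases in ES libraries, so its FPKM and its counts rest on a different mix of its 3 RefSeq transcripts.

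Il10rb, a receptor chain for interleukin 10 and interferon lambda, is annotated within 1 kb of Ifnar2, and the Ifnar2 row of the authors' tables carries the orthology terms of both. Il10rb had 15.1, 16.3 and 15.1 FPKM in XEN libraries, against 0.87, 0.46 and 0.59 FPKM in ES libraries, a log2 fold change of 4.73 (adjusted p = 1.09e-18, edgeR). All counts of Ifnar2 were whole numbers, and whether reads of Ifnar2 or Il10rb were assigned to the other gene was not tested.

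Within a library the balance of the receptor chains was close in both kinds of cell. The log2 ratio of Ifnar1 over Ifnar2 in FPKM was -0.87 ± 0.12 in XEN and -1.03 ± 0.05 in ES libraries (SD, n = 3 each), a difference of 0.17 ± 0.08 (SE; p = 0.2, two-sided exact permutation test). It was 0.10 without XEN A and 0.07 with CPM in place of FPKM. The smallest p that 3 against 3 libraries allow is 0.1, so the design could not reach 0.05, and over the 3 ratios computed for the set each adjusted p was 0.3.

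Stat2 and Irf9, whose products act together in ISGF3, were both lower in XEN cells. Stat2 (gene 20847), the subunit that carries the transactivation domain, had 3.98, 3.79 and 4.31 FPKM in XEN libraries, against 11.8, 12.3 and 11.5 FPKM in ES libraries. No XEN library came near the ES range. The log2 fold change was -1.43 ± 0.06 (adjusted p = 2.63e-15, and 2.01e-07 against 2-fold, edgeR). Apof, a short gene annotated as overlapping Stat2, held 0 counts over the XEN and 24 over the ES libraries, few beside the 1157 and 3352 counts of Stat2.

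Irf9 (gene 16391), the DNA-binding subunit of ISGF3, had 4.96, 3.75 and 4.60 FPKM in XEN libraries, against 10.5, 12.5 and 11.8 FPKM in ES libraries. It was the most variable of the tested genes within groups, yet the groups stayed apart. Its log2 fold change was -1.22 ± 0.13 (adjusted p = 2.95e-10, and 0.00868 against 2-fold, edgeR). Rnf31, a ubiquitin ligase gene within 1 kb, also fell in XEN cells, by 0.52 on the log2 scale (adjusted p = 2.55e-09, edgeR). The strand setting of the counting is not given in the sources used here, so reads of neighbours that overlap cannot be told apart by strand.

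Irf9 and Stat2 stood at nearly the same level as each other in both kinds of cell. The log2 ratio of Irf9 over Stat2 in FPKM was 0.13 ± 0.17 in XEN and -0.03 ± 0.12 in ES libraries, a difference of 0.17 ± 0.12 (SE; p = 0.3, two-sided exact permutation test, n = 3 each). It was 0.07 without XEN A and 0.10 without ES A.

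The IRF factors of the set moved in opposite directions. Irf1 (gene 16362), a factor that is induced by interferon and activates interferon-inducible promoters, had 1.07, 0.98 and 1.07 FPKM in XEN libraries, against 18.3, 18.4 and 17.1 FPKM in ES libraries. It was covered by 49, 44 and 46 counts in XEN libraries and by 776, 824 and 771 counts in ES libraries, so XEN libraries were far below ES libraries but above the counting floor. Its log2 fold change was -3.98 ± 0.06, or 15.8-fold lower (adjusted p = 6.37e-20, and 3.8e-18 against 2-fold, edgeR). The SE holds only the spread between libraries and is below the counting error of the XEN counts.

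Irf3 (gene 54131), the constitutive factor that MAVS signalling activates, had 15.8, 16.6 and 16.9 FPKM in XEN libraries, against 9.55, 9.57 and 8.79 FPKM in ES libraries. All XEN libraries were above all ES libraries, by a margin smaller than for Ifnar1. The log2 fold change was 0.95 ± 0.04 (adjusted p = 3.82e-12, edgeR), and the adjusted p against 2-fold was 1. Of its neighbours within 1 kb, Bcl2l12 fell by 0.54 on the log2 scale (adjusted p = 2.75e-05, edgeR) and Scaf1, a splicing-associated factor, did not pass (log2 fold change -0.06, adjusted p = 0.346, edgeR).

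The order of Irf3 and Irf1 was thus opposite in the 2 kinds of cell. The log2 ratio of Irf3 over Irf1 in FPKM was 3.88, 4.08 and 3.98 in XEN libraries, against -0.94, -0.94 and -0.96 in ES libraries. Irf3 stood at 15.8 times Irf1 in XEN and at 0.519 times Irf1 in ES cells. The difference of 4.93 ± 0.06 (SE) had p = 0.1 in the two-sided exact permutation test, the smallest that 3 against 3 libraries can give.

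The RNA sensors were the lowest of the set in XEN cells. Ddx58 (gene 230073), which encodes RIG-I, the sensor of short RNA with a triphosphate end, had 0.27, 0.25 and 0.28 FPKM in XEN libraries, against 15.7, 16.7 and 16.4 FPKM in ES libraries. These levels came from 29, 27 and 29 counts in XEN libraries and 1572, 1770 and 1755 counts in ES libraries. Within either group the 3 libraries were close together, and the groups were farther apart than for any other tested gene of the set. The log2 fold change was -5.79 ± 0.06, or 55.5-fold lower (adjusted p = 2.43e-23, and 3.76e-22 against 2-fold, edgeR). That SE holds only the spread between libraries and is below the counting error of so few XEN counts. Of the 3 ISRE core matches shown above, that of Ddx58 lay next to its start.

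Ifih1 (gene 71586), which encodes MDA5, the sensor of long double-stranded RNA, was listed in no XEN library. In ES libraries A, B and C it held 1, 2 and 3 counts, or 0.01, 0.02 and 0.03 FPKM. A count of 0 allows up to 3 counts, or 0.130 to 0.149 CPM in a library (CPM, counts scaled to library size with TMM factors), for counting error only. ES and XEN libraries were thus all at or near the floor. No fold is therefore given. It was below the filter on low counts and was not tested; without the filter its adjusted p was 0.0337 by edgeR, and it was 0.151 by DESeq2. No ratio of Ifih1 over Ddx58 was computed, with Ifih1 listed at 0 in XEN libraries.

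Mavs (gene 228607), the mitochondrial adaptor through which both sensors signal, had 8.12, 7.75 and 7.79 FPKM in XEN libraries, against 25.9, 28.6 and 25.7 FPKM in ES libraries. It remained measurable in all XEN libraries, with 454 to 508 counts, while ES libraries held 1535 to 1806 counts. The log2 fold change was -1.68 ± 0.06, or 3.19-fold lower (adjusted p = 3.17e-17, and 3.38e-11 against 2-fold, edgeR). Its row combines 4 RefSeq transcripts and 3 that the authors added.

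**Figure D2:**
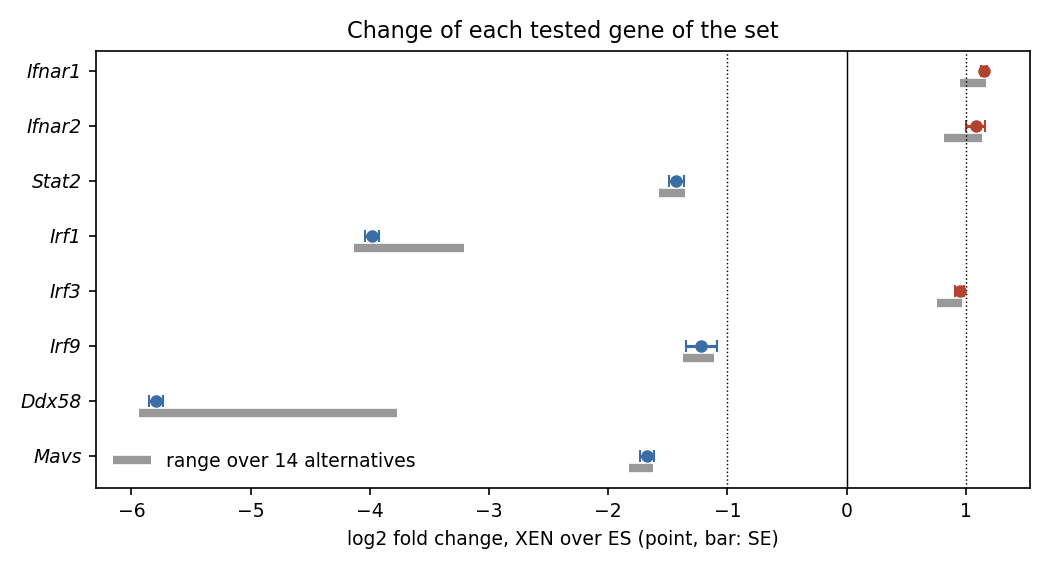
Log2 fold change, XEN over ES, of the 8 tested genes (horizontal axis), as a point with its SE, red where higher and blue where lower in XEN cells. Grey bars span the values under 14 other settings, and dotted lines mark a 2-fold change; no bar crosses 0, and the bars of Irf1 and Ddx58 are the widest, with their upper ends at -3.21 and -3.77 set by log2(FPKM + 1).

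The order of the levels differed between the groups. By mean FPKM, XEN cells ranked Ifnar2, Ifnar1, Irf3, Mavs, Irf9, Stat2, Irf1, Ddx58 and Ifih1 from high to low, and among neighbours in that order only the ranges of Irf9 and Stat2 overlapped. In ES cells the order was Mavs, Ifnar2, Irf1, Ddx58, Stat2, Irf9, Irf3, Ifnar1 and Ifih1. There the ranges overlapped for the neighbours Ifnar2 and Irf1, for Stat2 and Irf9, and for Irf3 and Ifnar1. Set among all genes listed in each group, whose median was 5.21 FPKM in XEN and 4.82 FPKM in ES cells, 8 of the 9 genes were above the median in ES cells. In XEN cells the receptor chains, Irf3 and Mavs were above it and the other 5 below. Ddx58 stood above 26.2% of listed genes in XEN and 72.0% in ES cells, and Ifnar1 above 73.3% in XEN and 60.9% in ES cells.

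For each tested gene, the gene whose log2 CPM differed least from its own over the 6 libraries was looked up among 12912 genes with symbols. Tollip was nearest to Ifnar1, with a largest difference of 0.06 in any library, and it had 133.7 CPM in XEN and 59.9 CPM in ES cells. Cbx2 was nearest to Stat2 (largest difference 0.10), AU040320 to Ifnar2 (0.11), 4921524J17Rik to Irf3 (0.07) and Zbtb7a to Mavs (0.15). Cacnb1 was nearest to Irf1 (0.20), Zscan22 to Irf9 (0.22) and Chd9 to Ddx58 (0.37), so the pattern of Ddx58 had the least close neighbour. Likeness here is of level alone.

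Other genes of the pathway were read from 9 lists. Of all tested genes 42.0% rose, 46.7% fell and 42.7% passed against 2-fold, which is the background for the counts of each list. Interferon genes were at or near 0 in both kinds of cell. Of 19 genes for interferon alpha, beta, epsilon, kappa, zeta, gamma and lambda, 17 were listed in no library, none was tested, and the most abundant, Il28a, was at 0 in all XEN libraries and held 1 count over the ES libraries.

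Among the 6 interferon receptor chains 5 rose and 1 fell in XEN cells (median log2 fold change 1.73). Both chains of the interferon gamma receptor rose: Ifngr1 had 7.06 ± 0.674 FPKM in XEN and 1.19 ± 0.0611 FPKM in ES cells (log2 fold change 2.70, adjusted p = 6.45e-15, edgeR), and Ifngr2 had 36.9 FPKM in XEN and 8.18 FPKM in ES cells. Ifnlr1, the chain specific to interferon lambda, fell, with 4 counts over the XEN and 421 over the ES libraries; Ifngr2 and Ifnlr1 were chosen after their values were seen. The partner of Ifnlr1, Il10rb, was the largest riser, so the lambda receptor's chains moved in opposite directions.

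Of the 4 Janus kinases 2 rose and 2 fell. Jak1, the kinase on IFNAR2, had 16.5 ± 0.823 FPKM in XEN and 8.70 ± 0.269 FPKM in ES cells (log2 fold change 1.06, adjusted p = 9.94e-15, edgeR). Tyk2, the kinase on IFNAR1, fell to 5.36 ± 0.339 FPKM in XEN cells, against 9.18 ± 0.352 FPKM in ES cells (log2 fold change -0.64, adjusted p = 1.63e-09, edgeR). Thus RNA of Ifnar1, Ifnar2 and Jak1 was higher, and RNA of Tyk2 lower, in XEN cells. Jak2, the partner of JAK1 on gamma receptors, rose by 2.15 on the log2 scale (adjusted p = 5.32e-18, edgeR). Jak3, the kinase of the common cytokine gamma chain, had 0.547 ± 0.122 FPKM in XEN and 33.0 ± 1.47 FPKM in ES cells (log2 fold change -5.83, adjusted p = 2.13e-22, edgeR) and was the most abundant of the 4 in ES cells and the least abundant in XEN cells.

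Of 6 STAT genes 1 rose, 4 fell and 1 did not pass, and the median log2 fold change was -0.94. Stat3, which LIF activates in ES cells, was the most abundant, at 29.0 ± 1.62 FPKM in XEN and 31.4 ± 1.26 FPKM in ES cells; it did not pass (log2 fold change 0.02, adjusted p = 0.707, edgeR), but counted as lower with upper-quartile factors or library size alone. Stat6, the interleukin 4 transducer, fell to 0.763 ± 0.101 FPKM in XEN cells, against 12.2 ± 0.227 FPKM in ES cells (log2 fold change -3.86, adjusted p = 4.03e-20, edgeR). Stat4, which acts downstream of interleukin 12, had 1 count over the XEN and 782 over the ES libraries, a ratio of ES over XEN of 727 with a 95% counting interval of 130.1 to 28744. Stat5b was the gene of these 6 that rose, by 0.56 on the log2 scale (adjusted p = 1.32e-07, edgeR).

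In the IRF family 6 of 9 genes were tested, and 2 rose and 4 fell (median log2 fold change -1.50). Beside the 3 genes of the set, Irf2, a factor that competes with IRF1, rose to 1.92 ± 0.168 FPKM in XEN cells, against 0.10 ± 0.02 FPKM in ES cells (log2 fold change 4.39, adjusted p = 4.75e-13, edgeR). Irf2 was outside the rule for named genes and was chosen after its values were seen. Irf8, a myeloid factor also chosen in that way, held 0 counts over the XEN and 49 over the ES libraries; with 3 counts over the XEN libraries as the floor, it was at least 15.2-fold lower in XEN cells. Irf7, the interferon-inducible factor that amplifies interferon production, had 0, 1 and 1 counts in XEN and 0, 2 and 0 counts in ES libraries, under the filter, and Irf4 was listed in no library.

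**Figure D3:**
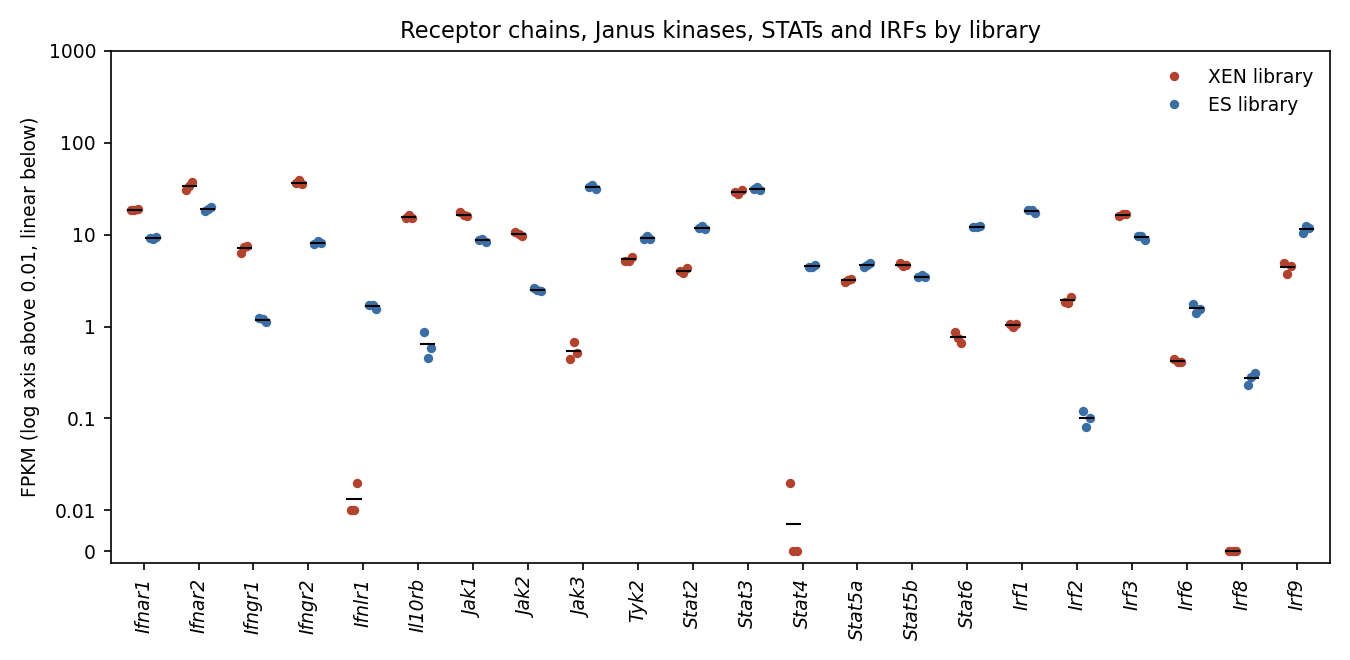
FPKM of tested receptor chains, Janus kinases, STATs and IRFs (vertical axis, logarithmic above 0.01 and linear below), 1 point per library, XEN left of ES, with a bar at each mean. XEN libraries lie above ES libraries for 5 of 6 receptor chains, Jak1, Jak2, Stat5b, Irf2 and Irf3, overlap them for Stat3, and lie below them for the rest.

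Cytosolic RNA sensing, a list of 19 genes that holds Ddx58, Ifih1 and Mavs, had 18 tested genes, of which 6 rose, 9 fell and 3 did not pass (median log2 fold change -0.20). Under the alternatives 8 to 11 of them fell, with 11 under upper-quartile factors or library size alone and 8 with the replicate letter as a block or with XEN B, XEN C, ES A or ES B left out. Rnf135, a ubiquitin ligase that activates RIG-I, fell with it, to 0.05, 0.07 and 0.05 FPKM in XEN libraries, against 5.75, 5.07 and 6.28 FPKM in ES libraries (log2 fold change -6.43, adjusted p = 3.15e-16, edgeR). It held 2, 3 and 2 counts in XEN libraries, near the floor, against 221, 206 and 257 in ES libraries, so the size of its fold is imprecise. Ikbke and Traf3, which act downstream of MAVS, were higher in XEN cells. Ikbke, a kinase of IRF3, had 3.52 ± 0.197 FPKM in XEN and 0.26 ± 0.0173 FPKM in ES cells (log2 fold change 3.88, adjusted p = 6.22e-16, edgeR), and Traf3, the ligase that links MAVS to that kinase, rose by 1.74 on the log2 scale (adjusted p = 1.02e-11, edgeR). Ddx3x, an RNA helicase and the most abundant gene of the list, had 204 ± 15.6 FPKM in XEN and 170.5 ± 1.40 FPKM in ES cells (log2 fold change 0.39, adjusted p = 3.32e-07, edgeR). Dhx58, the helicase LGP2 related to both sensors and chosen after its values were seen, had 0.38 ± 0.0794 FPKM in XEN and 0.513 ± 0.0929 FPKM in ES cells and did not pass (adjusted p = 0.286, edgeR).

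Endosomal RNA sensing and DNA sensing had 11 of 17 genes tested, with 3 higher and 8 lower in XEN cells; the count of higher genes was 2 with upper-quartile factors, library size alone, DESeq2 or FPKM, or without XEN A, XEN B or ES C, and 7 were lower without XEN A, XEN B, ES A or ES C. Aim2, a sensor of cytosolic DNA, was the most abundant of the list in ES cells, with 2, 1 and 0 counts in XEN libraries, against 2427, 2526 and 2502 counts in ES libraries. The ratio of its summed counts, ES over XEN, was 2309.6 with a 95% counting interval of 790.0 to 11202. Samhd1, a nucleotide hydrolase that restricts viruses, fell by 0.45 on the log2 scale (adjusted p = 1.94e-08, edgeR). The adaptors of the Toll-like receptors rose: Myd88 had 14.0 ± 0.876 FPKM in XEN and 4.57 ± 0.275 FPKM in ES cells (log2 fold change 1.74, adjusted p = 1.38e-14, edgeR), and Ticam1 5.45 ± 0.434 FPKM in XEN and 3.25 ± 0.166 FPKM in ES cells (log2 fold change 0.88, adjusted p = 1.18e-08, edgeR).

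Of 18 tested negative regulators of the pathway 6 rose, 10 fell and 2 did not pass (median log2 fold change -0.37). These counts are near the background, since 42.0% of all tested genes rose and 46.7% fell. Rnf125, a ubiquitin ligase that marks RIG-I and MAVS for degradation, had 0.32, 0.27 and 0.26 FPKM in XEN libraries, against 14.8, 15.5 and 15.0 FPKM in ES libraries (log2 fold change -5.25, adjusted p = 1.99e-22, edgeR). Ptpn6, the phosphatase SHP-1, fell by 1.90 on the log2 scale (adjusted p = 4.07e-16, edgeR), and Pcbp2, an RNA-binding protein that directs MAVS turnover and the most abundant of the list, fell by 0.50 (adjusted p = 4.3e-11, edgeR). Tnfaip3, the deubiquitinase A20, had 7.52 ± 0.263 FPKM in XEN and 0.443 ± 0.0416 FPKM in ES cells (log2 fold change 4.21, adjusted p = 4.71e-20, edgeR), and Ptpn1, a phosphatase of JAK2 and TYK2, rose by 1.30 on the log2 scale (adjusted p = 1.56e-16, edgeR).

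**Figure D4:**
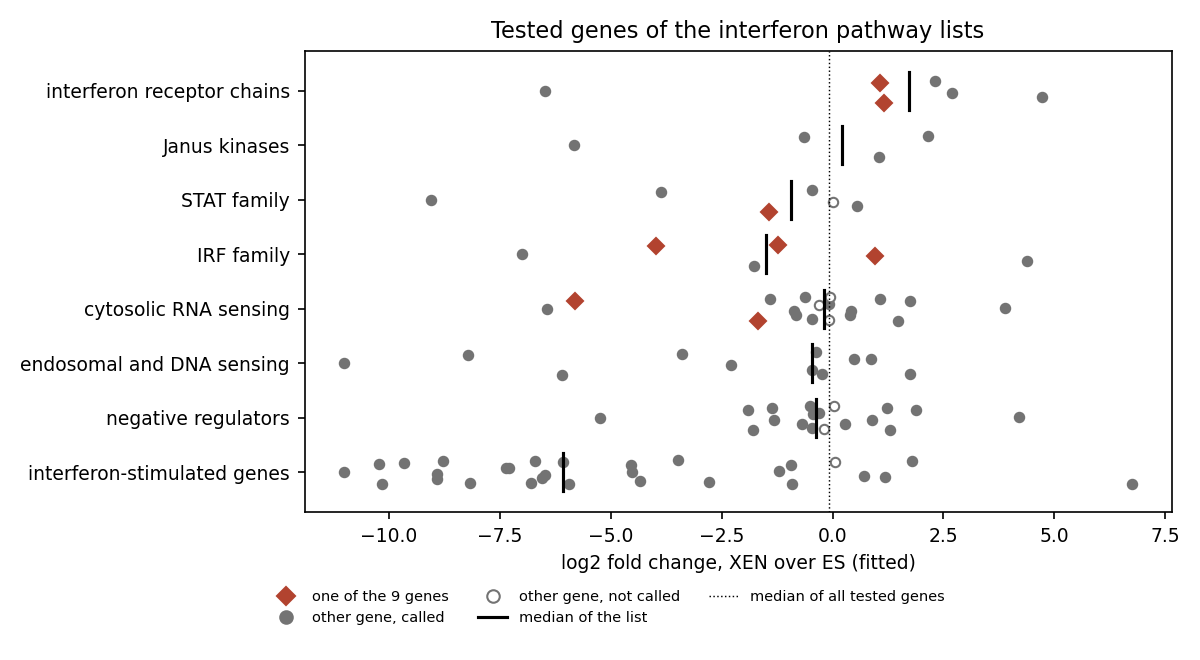
Log2 fold change, XEN over ES (horizontal axis), of each tested gene of 8 pathway lists, 1 list per row, with the genes of the set as red diamonds, called genes filled and genes that did not pass open. Black bars mark the median of each list and the dotted line that of all tested genes, -0.07. Fitted values of genes at 0 in 1 group are plotted as fitted and are no bound. The medians run from 1.73 for the receptor chains to -6.08 for the interferon-stimulated genes, a value shaped by the filter on low counts.

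Interferon-stimulated genes, the targets of ISGF3 and IRF factors, were the list with the lowest median over tested genes. Most of these passed the filter on low counts through ES libraries alone, so this rank does not speak for the whole list. Of 46 genes 29 were tested, and 4 rose, 24 fell and 1 did not pass; 21 of those lower and 3 of those higher passed against 2-fold. The median log2 fold change of the 29 was -6.08, and -4.54 with the 7 genes listed at 0 in 1 group set at their bound. Genes with a few XEN counts kept their fitted values. The 7 genes were at 0 in XEN cells and passed the filter through ES libraries alone. So did most of the other genes that fell, such as Ifi35 with 3, 3 and 0 counts in XEN libraries and Parp12 with 0, 1 and 1. Left out were 13 listed genes with too few counts and 4 listed in no library. The filter itself thus shapes this median and the count of genes that fell. Summed over the list, the level was 57.8 to 62.5 FPKM in XEN libraries, against 1365 to 1410.2 FPKM in ES libraries, and 5 genes exceeded a mean of 1 FPKM in XEN against 18 in ES cells. That gap rests on 4 genes, Ifitm1, Ifitm2, Ifitm3 and Xaf1, picked as the most abundant in ES cells, which summed to 2.88 to 3.14 FPKM in XEN and 1304.7 to 1348.8 FPKM in ES libraries. The other 38 listed genes summed to 54.7 to 59.6 FPKM in XEN and 60.5 to 63.0 FPKM in ES libraries. Of these, Shisa5 was higher in XEN cells and made up 43.7 FPKM of the XEN and 21.0 FPKM of the ES sum. Without Shisa5 the remaining sum was lower in XEN cells.

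The most abundant genes of the list in ES cells encode membrane proteins that block viral entry. Ifitm2 had 1.42, 1.74 and 1.41 FPKM in XEN libraries, against 727, 748 and 742 FPKM in ES libraries, and Ifitm1 0.47, 0.24 and 0.50 FPKM in XEN libraries, against 332, 347 and 352 FPKM in ES libraries. Their log2 fold changes were -8.79 (adjusted p = 3.55e-27) and -9.65 (adjusted p = 8.85e-26) by edgeR. Ifitm1 rested on 6, 3 and 6 counts in XEN libraries, so the size of its fold is imprecise. Ifitm3, chosen after its values were seen, had 0.537 ± 0.180 FPKM in XEN and 169.3 ± 3.45 FPKM in ES cells, with 8, 4 and 7 counts in XEN libraries. Xaf1, an apoptosis-linked factor also chosen in that way, had 0.54 ± 0.07 FPKM in XEN and 81.6 ± 1.67 FPKM in ES cells. Ifitm genes are related to each other, as are the Oas1 genes, and whether reads were shared among them was not tested. Oas1a, an oligoadenylate synthetase that double-stranded RNA activates, was listed in no XEN library and held 256, 287 and 259 counts in ES libraries, at least 248-fold lower in XEN cells against the same floor of 3 counts over the group.

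Some of the classical interferon-induced genes were near 0 in both kinds of cell. Isg15 had 3 counts over the XEN and 0 over the ES libraries, Mx1 had 3 over the XEN and 2 over the ES libraries, and Ifit1 was listed in no library; these were chosen after their values were seen. Shisa5, a membrane protein of the endoplasmic reticulum, was the largest riser among genes of the list with at least 5 CPM, at 43.7 ± 2.44 FPKM in XEN and 21.0 ± 0.947 FPKM in ES cells (log2 fold change 1.19, adjusted p = 3.31e-15, edgeR). Below 5 CPM 2 genes rose by more, beside the 24 that fell. Lgals9 rose by 1.80 on the log2 scale, and Oasl2 held 139 counts over the XEN and 1 over the ES libraries. Both were chosen after their values were seen. Bst2, the tetherin that holds budding virus, had 4.97 ± 0.237 FPKM in XEN and 5.24 ± 0.26 FPKM in ES cells and did not pass (adjusted p = 0.748, edgeR); it too was chosen after its values were seen.

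**Figure D5:**
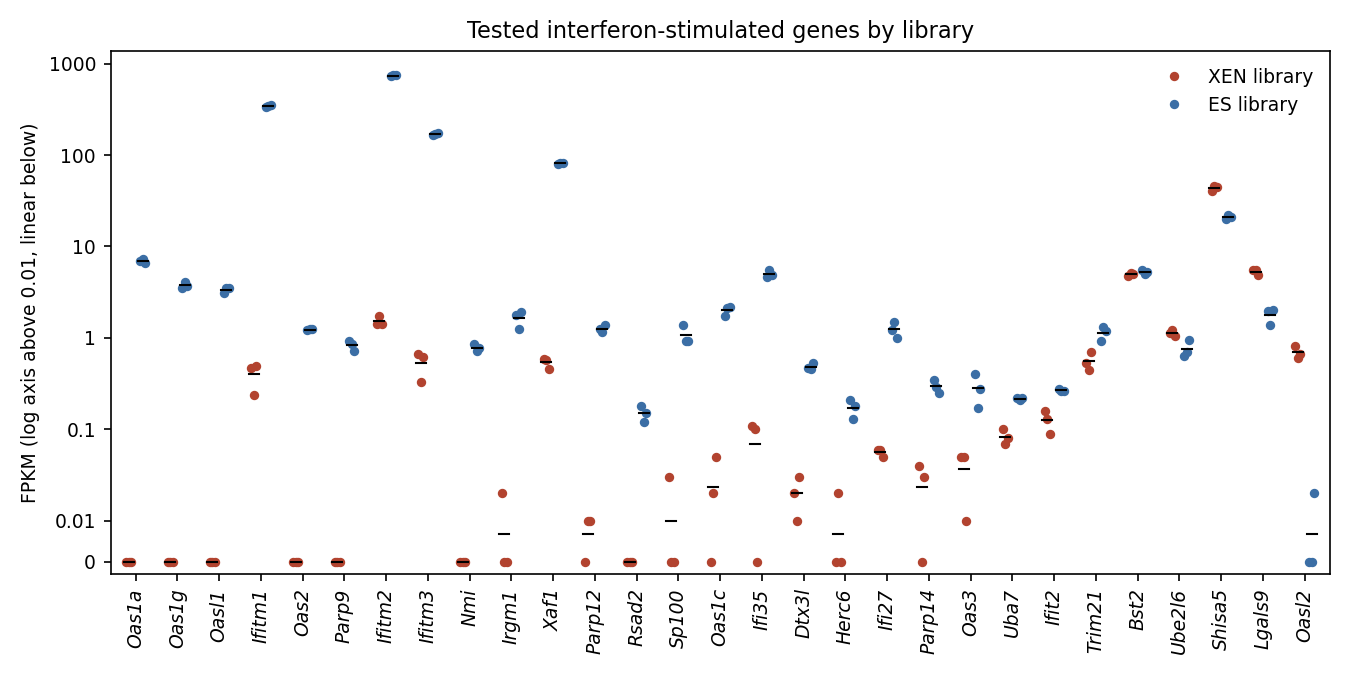
FPKM of the 29 tested interferon-stimulated genes (vertical axis, logarithmic above 0.01 and linear below), ordered by log2 fold change from lowest to highest, 1 point per library, XEN left of ES, with a bar at each mean. In 24 genes XEN libraries are below ES libraries, with 7 of these genes at 0 in every XEN library, and at the right end Shisa5, Lgals9, Oasl2 and Ube2l6 are higher in XEN libraries.

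Libraries held 21134720 to 22375875 expected counts in XEN and 20675311 to 22037793 in ES cells, and none was alike to another within sampling noise. The 7 endoderm markers all rose in XEN cells, with a summed level of 2127.5 to 2353.5 FPKM in XEN and 7.74 to 8.12 FPKM in ES libraries, and the 7 pluripotency markers all fell, with 1.09 to 1.55 FPKM in XEN and 4037.5 to 4191 FPKM in ES libraries. Markers of macrophages and leukocytes, which express many genes of the pathway, summed to 4.53 to 5.20 FPKM in XEN and 17.2 to 19.2 FPKM in ES libraries; 8 of the 12 were listed, and Ptprc, Lyz2, Emr1 and C1qb were at 0 in every library. Of the 3 tested, Cd68 fell, at 1.67 FPKM in XEN and 17.9 FPKM in ES cells, while Csf1r rose, with 579 counts over the XEN and 3 over the ES libraries, and Cd14 rose, with 46 counts over the XEN and 0 over the ES libraries. Fibroblast markers summed to 1.45 to 1.88 FPKM in XEN and 2.43 to 2.63 FPKM in ES libraries, with 8 of 10 listed and Twist2 and Lum at 0. Trophoblast markers summed to 2.64 to 3.28 FPKM in XEN and 32.5 to 34.4 FPKM in ES libraries, with 7 of 8 listed and Hand1 at 0; Tfap2c made up 22.6 FPKM of the ES sum, 4 of the 5 tested fell and Cdx2 rose, with 53 counts over the XEN and 10 over the ES libraries. The part of these other cell types in the results was not tested.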

How the data were processed

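The authors' deposited tables, 1 per library, gave RSEM expected counts and FPKM per gene, with a transcript length (mean over the transcripts in use). The submitters' processing notes name mm9, Bowtie2, RSEM and DESeq2, without roles or versions. A gene absent from a table, which lists none under 0.01 FPKM, was taken as 0. Expected counts were rounded, filtered by filterByExpr (13581 of 17710 genes kept), scaled by TMM and tested by edgeR 4.0.16 (R 4.3.3) with the quasi-likelihood test, Benjamini-Hochberg adjustment at 0.05 and glmTreat at 2-fold. Each log2 fold change has a standard error taken from the spread of log2 CPM over libraries, with prior count 2. At low counts it can be smaller than the counting error. Ratios of FPKM used exact permutation tests (scipy 1.17.1), over 3 of 4 planned ratios. Named genes are the 9 genes, up to 2 called genes per list and direction with at least 5 CPM, the most abundant of each list by mean FPKM over both groups, and the nearest gene in level; genes annotated beside the set, and Irf4 and Irf7, were named outside that rule with their values seen. The genes and lists were chosen with earlier results of these data known, and 1 gene of the STAT list is not reported here. Alternatives were RLE and upper-quartile factors, library size alone, no filter, DESeq2 1.42.0, limma 3.58.1 on log2(FPKM + 1) and log2(FPKM + 0.1), CPM in place of FPKM in ratios, a replicate block and leaving out each library.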

Additional observations from a re-analysis of the deposited data

How the results depend on the processing

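The 8 tested genes kept their direction and passed 0.05 under all 14 alternatives, with a highest adjusted p of 2.3e-06, for Ifnar2. Their log2 fold changes ran from 0.95 to 1.17 for Ifnar1, 0.82 to 1.13 for Ifnar2, -4.13 to -3.21 for Irf1, 0.76 to 0.97 for Irf3, -5.94 to -3.77 for Ddx58 and -1.82 to -1.63 for Mavs. The test against 2-fold was run in the main fit alone. Ifnar1, which passed it there, was at 1.005 with upper-quartile factors and 1.018 with library size alone. Without the filter Ifih1 was called as lower, which made 6. All 252 counts over lists stayed within 1.5 times. The difference in Irf3 over Irf1 was 4.80 with 0.1 FPKM and 3.97 with 1 FPKM added to both genes, since the added value weighs most on low genes; leaving out 1 library gave 4.88 to 4.98. Upper-quartile factors put the median log2 fold change of all tested genes at -0.21, and library size alone at -0.20, against -0.07 with TMM. Libraries of the same letter did not deviate together, with correlations of 0.0327, 0.00761 and 0.0199, although each correlated best with its own letter; with the replicate block 5682 genes rose and 6318 fell, and of the set 3 rose and 5 fell. Depth limits Ifih1, the interferon genes and Irf7, none of which had more than 3 counts in a library.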
